A study of Gallus gallus with 10 samples.

Results

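Transglutaminases and peptidylarginine deiminases were examined through 3 genes, TGM2 (ENSGALG00000006775), TGM4 (ENSGALG00000033171) and cPAD2 (ENSGALG00000029212), of 11324 genes with counts in the chick preoptic anterior hypothalamus (PO/AH). The 3 genes were selected on the same contrast that is described here, since each of them was higher after the miR-200a mimic, so their differences are given as a description without p-values, and their calls on this contrast support nothing. RNA from whole PO/AH tissue of Cobb broiler chicks was sequenced by bulk MARS-seq, which counts transcripts by a unique molecular identifier (UMI) at the 3′ end. There were 5 libraries from untreated naïve chicks of matched age and 5 from chicks killed 6 h after 2.5 μg of the hsa-miR-200a-3p mimic, a synthetic double of the mature microRNA, was injected into the brain on day 3. All chicks were Cobb broilers, and no genetic change or drug is named for either group. The naïve chicks received no injection, and the paper describes RNA-seq of naïve and miR-200a mimic chicks only, without the negative control mimic. The mimic and the injection therefore cannot be told apart. It was not stated whether each library was 1 chick, and the p-values measure the spread between these libraries, which may be partly technical.

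Transglutaminases join the side chain of glutamine to lysine and so cross-link proteins in a calcium-dependent reaction. TGM2 is the widely expressed tissue enzyme of this family, which also binds GTP, and in mammals it is made by endothelial cells, macrophages and glia. TGM4 is known in mammals as the enzyme of the prostate, which in rodents clots seminal fluid. Peptidylarginine deiminases are also activated by calcium, and they convert arginine in proteins to citrulline. In mammals PADI2 is the main deiminase of the brain, where myelin basic protein is one of its substrates, and cPAD2 is a synonym of the chicken PADI2 gene in RefSeq.

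The deposited counts summed to 2104121 to 5503185 per naïve library and to 3598695 to 4511597 per mimic library, without a detectable difference in mean (exact two-sided permutation test, p = 0.762). Libraries are called by the numbers in the names of the count columns, and naïve library 7 was the smallest. The sample titles use other numbers, so a library was matched to its group but not to a titled sample. Levels are given as CPM, meaning UMI counts relative to a TMM-scaled library total. Gene names were at hand for 137 of the genes, and 94 of these names come from lists that the study chose on these same libraries. Of the 7 listed neuronal markers only RBFOX3 was matched, with naïve libraries averaging 116 ± 19.8 CPM and mimic libraries 84.5 ± 23.3 CPM (SD, n = 5 each). The groups overlapped, and the fitted log2 fold change of RBFOX3 was −0.45 (edgeR's quasi-likelihood test, unadjusted p = 0.0285, adjusted p = 0.612). No marker of the preoptic area, endothelium, oligodendrocytes, astrocytes or blood cells was matched to a row of the counts. For LHX3, which was on the list used for the preoptic area and hypothalamus, a name was at hand, but its identifier was not among the counts. The tissue label could therefore be checked only in part, and a marker without a name was not shown to be absent.

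TGM2 had the tightest naïve levels of the 3 genes. It was at 16.6, 13.7, 16.8, 17.3 and 14.7 CPM in naïve libraries 2, 3, 4, 6 and 7. After the mimic it was at 38.4, 23.2, 40.6, 46.9 and 42.7 CPM in libraries 2, 4, 6, 9 and 10. The groups did not overlap, and mimic library 4 lay well below the other 4 mimic libraries. Naïve libraries averaged 15.8 ± 1.56 CPM and mimic libraries 38.4 ± 9.03 CPM (SD, n = 5 each). The ratio of these means was 2.42, and the fitted log2 fold change was 1.27 ± 0.18 (standard error). The lowest mimic library was 1.34 times the highest naïve library. Their exact 95% Poisson intervals, which cover counting error only, overlapped. These were 13.9 to 21.3 CPM in naïve library 6 and 18.7 to 28.6 CPM in mimic library 4. These levels rested on 29 to 92 counts per naïve library and 89 to 203 counts per mimic library.

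TGM4 was close to the detection limit in naïve chicks and clearly measured after the mimic. Naïve libraries 2, 3, 4, 6 and 7 held 3, 9, 4, 3 and 9 counts, which are 0.542, 1.58, 1.07, 0.578 and 4.56 CPM. Mimic libraries 2, 4, 6, 9 and 10 held 62, 23, 139, 40 and 66 counts, which are 17.4, 6.00, 31.5, 9.24 and 17.1 CPM. All mimic libraries lay above all naïve libraries, but library 6 held 5.25 times the level of library 4. Naïve libraries averaged 1.67 ± 1.67 CPM of TGM4 and mimic libraries 16.2 ± 9.86 CPM (SD, n = 5 each). The ratio of means was 9.75, and the log2 fold change was 3.58 ± 0.56 (standard error). The distance between the groups was narrow, as the lowest mimic library was 1.32 times the highest naïve library. That naïve library is library 7, whose 9 counts allow 2.09 to 8.66 CPM by an exact 95% Poisson interval, and the interval of mimic library 4 was 3.80 to 9.01 CPM. These intervals cover counting error only, and they overlap. Without naïve library 7 the log2 fold change of TGM4 was 4.08 (standard error 0.55).

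cPAD2 was also low in naïve chicks. Naïve libraries 2, 3, 4, 6 and 7 held 7, 5, 13, 8 and 5 counts, which are 1.27, 0.877, 3.47, 1.54 and 2.54 CPM. Mimic libraries 2, 4, 6, 9 and 10 held 51, 27, 32, 33 and 21 counts, which are 14.3, 7.05, 7.25, 7.62 and 5.44 CPM. The groups did not overlap, and mimic library 2, at 14.3 CPM, stood above the next library at 7.62 CPM. Mean cPAD2 over naïve libraries was 1.94 ± 1.05 CPM and over mimic libraries 8.33 ± 3.43 CPM (SD, n = 5 each). The ratio of means was 4.30 and the log2 fold change was 2.19 ± 0.38 (standard error). The lowest mimic library was 1.57 times the highest naïve library. Their exact 95% Poisson intervals overlapped, at 1.85 to 5.93 CPM in naïve library 4 and 3.37 to 8.32 CPM in mimic library 10. Without mimic library 2 the log2 fold change was 1.92 (standard error 0.35), and without naïve library 4 it was 2.54 (standard error 0.38).

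**Figure D1:**
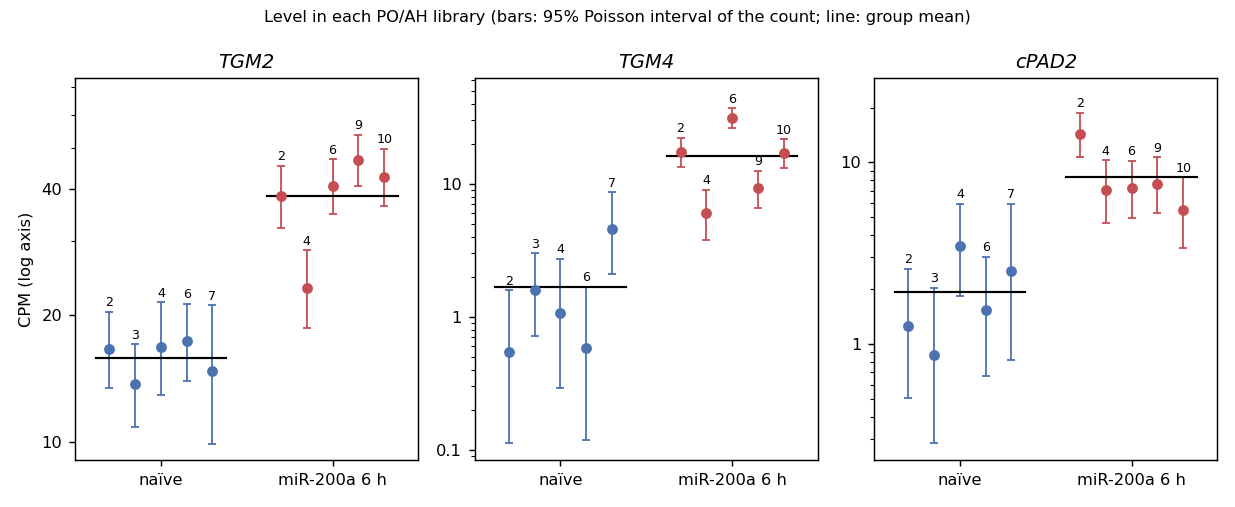
Level of TGM2, TGM4 and cPAD2 in each PO/AH library, in CPM on a log axis, for 5 naïve libraries (blue) and 5 libraries 6 h after the mimic (red). Points carry their library number, vertical bars are exact 95% Poisson intervals of the count and horizontal lines are group means, and in each panel the lowest red point lies above the highest blue point.

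All 3 genes passed the filter on low counts, and all 3 were called higher by edgeR's quasi-likelihood test over 8585 genes (adjusted p up to 0.05, at least 1.5-fold, and 30 or more counts in some library). TGM4 and cPAD2 passed the filter through their mimic libraries, since naïve libraries held only 3 to 9 and 5 to 13 counts of them. Over all tested genes 0.163% were called in either direction and 0.14% were called higher, and the groups were fully apart with higher mimic values in 1.09%. Since the contrast itself chose the genes, nothing further was read from these counts. The median log2 fold change of the 3 genes was 2.19, and that of all tested genes was −0.0042. Ranked from the largest increase down, TGM4 was number 4, cPAD2 number 10 and TGM2 number 24 of the tested genes. In bulk tissue, more cells of a type and more RNA per cell cannot be told apart.

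**Figure D2:**
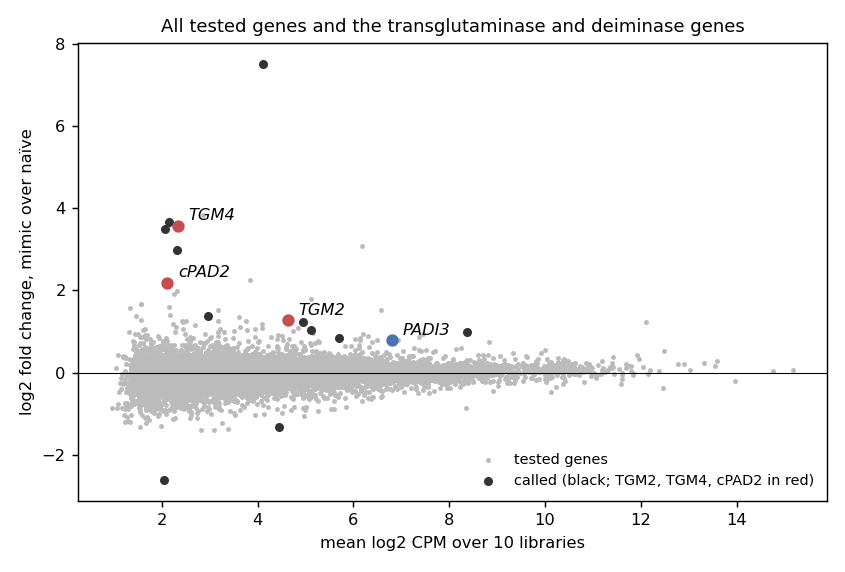
Log2 fold change of the mimic over naïve libraries against mean log2 CPM over 10 libraries, for 8585 tested genes (grey) with called genes in black. TGM4 at 3.58, cPAD2 at 2.19 and TGM2 at 1.27 are in red, and PADI3 at 0.79, which was not called, is in blue.

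The spread between libraries is given beside the spread that counting alone would give, without a test of the difference. For TGM2 the coefficient of variation was 9.85% in naïve chicks, where counting alone gives 12.8%, and 23.5% after the mimic, where counting alone gives 8.07%. For TGM4 it was 100.5% against 47.2% in naïve chicks and 60.7% against 12.4% after the mimic. For cPAD2 it was 54.4% against 39.2% in naïve chicks and 41.2% against 17.5% after the mimic. The biological coefficient of variation that edgeR fitted was 19.7% for TGM2, 50.6% for TGM4 and 32.4% for cPAD2. The trend over genes of like abundance was 21.7% for TGM2, 26.8% for TGM4 and 28.4% for cPAD2. The values of cPAD2 and TGM2 lay near it and that of TGM4 lay above it. Because edgeR draws the value of each gene towards this trend, lying near it is partly built in.

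The same mimic library was not high in all 3 genes. Library 9 held the highest level of TGM2, library 6 that of TGM4 and library 2 that of cPAD2. Library 4 was the lowest of the mimic group for TGM2 and TGM4, and library 10 was the lowest for cPAD2. In naïve chicks library 6 was highest for TGM2, library 7 for TGM4 and library 4 for cPAD2. The log2 ratio of TGM4 to TGM2 within a library ranged from −4.08 to −1.59 in naïve chicks and from −2.29 to −0.36 after the mimic, so these ranges overlapped.

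**Figure D3:**
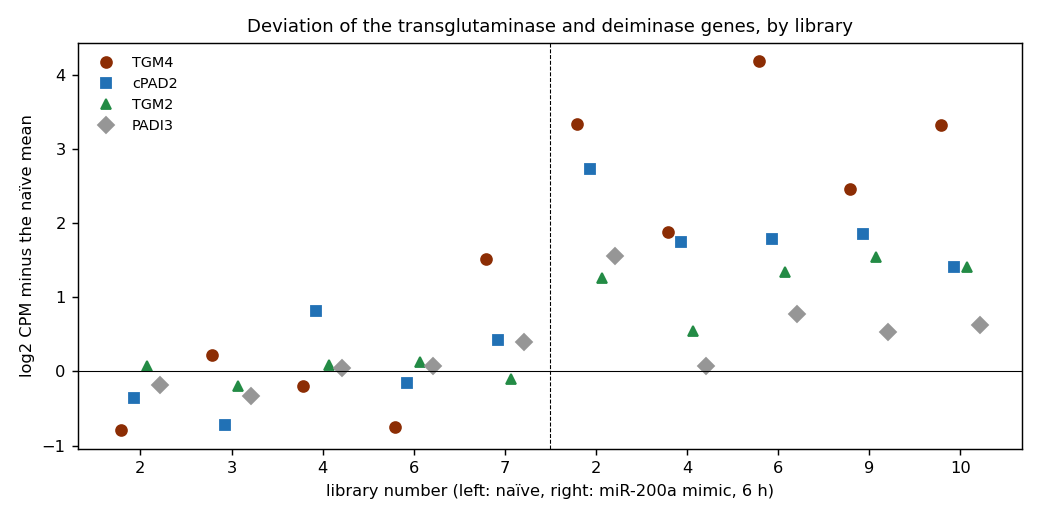
Log2 CPM of TGM4, cPAD2, TGM2 and PADI3 in each library, as the difference from the mean of the gene over naïve libraries (left: naïve libraries, right: mimic libraries). The points of TGM4, cPAD2 and TGM2 lie above 0 in all 5 mimic libraries, and the highest point belongs to library 6 for TGM4, to library 2 for cPAD2 and to library 9 for TGM2.

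PADI3 (ENSGALG00000031373) was the only other gene of either family that was matched to a name among the counts. In mammals PADI3 is the deiminase of hair follicles and epidermis, and in the chicken RefSeq annotation it carries the synonym cPAD3. PADI3 was at 76.5, 69.1, 89.6, 91.6 and 115 CPM in naïve libraries 2, 3, 4, 6 and 7, and at 256, 91.6, 149, 126 and 134 CPM in mimic libraries 2, 4, 6, 9 and 10. The groups overlapped, because mimic library 4 was no higher than naïve library 6 and lay below naïve library 7, and the other 4 mimic libraries lay above every naïve library. Mean PADI3 over naïve libraries was 88.3 ± 17.4 CPM and over mimic libraries 151 ± 62.3 CPM (SD, n = 5 each). PADI3 was not called, with a log2 fold change of 0.79 ± 0.23 (standard error) and, from edgeR, an unadjusted p = 0.00503 and an adjusted p = 0.428. Neither DESeq2 at the study's settings, run after the count filter used here (adjusted p = 0.144), nor any other alternative called it, with adjusted p from 0.141 to 0.800. PADI3 was itself on the study's list of higher genes, from which its name was taken, and its direction is therefore no independent evidence. That list used a looser threshold on the adjusted p than a call here requires. PADI3 did not reach that looser threshold here either (adjusted p = 0.144 from DESeq2), so its place on the list was not reproduced.

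The deiminase genes cPAD2 and PADI3 shared their highest mimic library, which was library 2 for both. Without it the log2 fold change of PADI3 was 0.52 ± 0.16 (standard error; edgeR adjusted p = 0.404), below the fold change of 1.5 that a call requires. The log2 ratio of cPAD2 to PADI3 averaged −5.29 ± 0.46 over naïve and −4.10 ± 0.34 over mimic libraries (SD, n = 5 each). Its highest naïve value and its lowest mimic value were both −4.51. Whether the changes of the 2 genes differ was not tested, because cPAD2 was chosen on this contrast.

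In the RefSeq annotation of the GRCg7b assembly PADI3, PADI1 and PADI2 (cPAD2) are consecutive coding genes, and PADI2 lies within the span of PADI1. It was not stated how reads from overlapping genes were assigned, and whether cPAD2 values hold reads of PADI1 was not tested. No coding gene overlaps TGM2 or TGM4 in that annotation, and the counts were made on another build, galGal5. RefSeq names 6 genes of the transglutaminase family and 3 deiminase genes in the chicken, and 4 of these 9 were matched to a count row. TGM3, TGM6, F13A1, EPB42 and PADI1 were not analysed here.

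Each gene was compared with all tested genes for its pattern over the 10 libraries, as the root mean square difference of log2 CPM after subtracting the naïve mean of each gene. The 5 genes most like TGM2 were SCIN (0.21), STAT6 (0.34), MST1 (0.34), C1QC (0.34) and C1QA (0.34), where the difference in log2 units is in parentheses. SCIN encodes an actin-severing protein, STAT6 a transcription factor of interleukin-4 signaling, and C1QA and C1QC chains of the complement protein C1q. The 5 genes most like TGM4 were LCN15 (0.54), ENSGALG00000014585 (0.60), ENSGALG00000046192 (0.67), SOCS3 (0.70) and C1S (0.88). SOCS3 is an inhibitor of cytokine receptor signaling and C1S a complement protease.

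The 5 genes most like cPAD2 were C1S (0.59), C1QB (0.64), HPX (0.64), TLR1B (0.68) and C1QC (0.72). HPX encodes the heme-binding protein hemopexin and TLR1B a Toll-like receptor. TGM2 came next after these, with a difference of 0.72 from cPAD2, and TGM4 was at place 252. Counted from TGM2, cPAD2 was at place 419 and TGM4, with a difference of 1.52, at place 8440. These places also reflect the size of a change, because the values were not scaled. Counted from TGM4, cPAD2 was at place 6 and TGM2 at place 15. All of the genes in these 3 sets had higher means after the mimic, which this measure favors, with log2 fold changes from 0.86 to 3.83. C1QA, C1QB, C1QC and TLR1B are also on the list of microglia and macrophage markers. When each group was centred on its own mean and each gene was scaled, the 5 nearest genes of each were 15 other genes without a name. Their log2 fold changes ranged from −0.21 to 0.35 and none of them was called by edgeR, the lowest adjusted p being 0.763. By this centred measure TGM2, TGM4 and cPAD2 were at places 2663 to 3603 from each other.

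Related genes were taken from lists of transglutaminase substrates and partners, deiminase substrates, and genes of retinoid, NF-κB and STAT signaling, which is known to induce TGM2 in mammals. With PADI3, 10 listed genes were matched and tested. edgeR called 0 of them, although 9 had an unadjusted p under 0.05, and limma-voom also called 0. DESeq2 at the study's settings called SOCS3, STAT3 and STAT6 higher and KRT20 lower. Of the 10 genes, 9 could be matched because the study had put them on its lists of changed genes, so the share with a low p is set by that choice and says nothing of the lists as a whole.

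Among the signaling genes, SOCS3 averaged 2.32 ± 1.58 CPM over naïve libraries and 28.9 ± 22.8 CPM over mimic libraries (SD, n = 5 each). The fitted log2 fold change of SOCS3 was 3.83 ± 0.71 (standard error; edgeR adjusted p = 0.0688). STAT3, a transcription factor of cytokine signaling, had 0.78 and STAT6 had 0.86 (adjusted p = 0.0688 for each from edgeR). NFKBIZ, a regulator of NF-κB, had 1.07 and IRF1, an interferon-responsive transcription factor, had 0.73 (adjusted p = 0.364 and 0.343 from edgeR). RARRES2, a retinoid-responsive gene that encodes chemerin, had −0.64 (adjusted p = 0.324 from edgeR). The median of these 6 log2 fold changes was 0.82. All 6 genes were matched through the study's lists of changed genes, so this median is no independent evidence of direction.

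Among the possible substrates, the calcium-binding protein gene S100A4 had a log2 difference of 0.90 ± 0.23 (standard error; edgeR adjusted p = 0.290). The keratin gene KRT20 averaged 14.5 ± 3.63 CPM over naïve libraries and 6.28 ± 2.91 CPM over mimic libraries (SD, n = 5 each), a fitted log2 difference of −1.23 (edgeR adjusted p = 0.177). KRT14, another keratin gene, averaged 3.29 ± 1.58 and 3.06 ± 1.13 CPM (SD, n = 5 each), a fitted log2 difference of −0.0041 (edgeR adjusted p = 0.999).

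Markers of other cells were set beside these levels. The study's lists of changed genes were the source of every matched marker of microglia and choroid plexus, so their direction is not independent evidence. Of 13 listed markers of microglia and macrophages 8 were matched, and none was at 0. The summed level of these 8 was 92.8 to 133 CPM in naïve libraries and 182 to 253 CPM in mimic libraries, without overlap. Of the 8, only C1QB and C1QC were called, both higher (adjusted p = 0.00346 and 0.0460 from edgeR). C1QA, P2RY13 and TLR1B also had higher means (adjusted p = 0.0633 for each from edgeR). So did SPI1 and TLR2A (adjusted p = 0.109 and 0.151 from edgeR). TREM2 had a lower mean (log2 fold change −0.85, adjusted p = 0.320 from edgeR). The highest sums, 253 and 236 CPM, were those of mimic libraries 6 and 2. From high to low, the sum ran over mimic libraries 6, 2, 10, 4 and 9. TGM4 ran over libraries 6, 2, 10, 9 and 4 and cPAD2 over libraries 2, 9, 6, 4 and 10. The order for TGM2 was 9, 10, 6, 2 and 4. TGM2 was highest in library 9, which had the lowest microglial sum of the mimic group, 182 CPM. The part of microglia in the levels of TGM2, TGM4 and cPAD2 was not tested.

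Of 7 markers of choroid plexus and meninges FOLR1 and SLC6A13 were matched, and both were below the count filter. Their summed level was 0.534 to 27.9 CPM in naïve libraries and 0 to 0.280 CPM in mimic libraries. Naïve library 7, the highest naïve library for TGM4, held 53 counts of FOLR1, a folate receptor, and the other naïve libraries held 1 to 4 counts. SLC6A13, a GABA transporter, had 75 and 68 counts in naïve libraries 3 and 6 and at most 2 elsewhere. TGM4 was at 1.58 and 0.578 CPM in naïve libraries 3 and 6. The part of this tissue in the levels of TGM2, TGM4 and cPAD2 was not tested. Without naïve library 7 the log2 fold changes were 1.26 for TGM2 (standard error 0.19), 2.28 for cPAD2 (standard error 0.41) and, as above, 4.08 for TGM4.

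The log2 fold changes were recomputed with each library left out in turn. That of TGM2 lay between 1.19 without mimic library 9 and 1.41 without mimic library 4. That of TGM4 lay between 3.17 without mimic library 6 and 4.08 without naïve library 7. That of cPAD2 lay between 1.92 without mimic library 2 and 2.54 without naïve library 4. The order TGM4, cPAD2, TGM2 was kept in each of these fits.

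**Figure D4:**
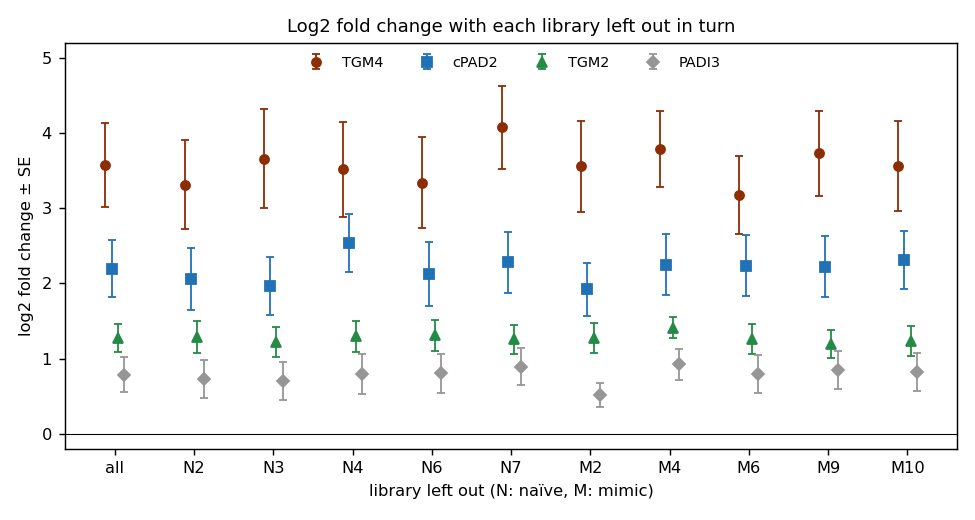
Log2 fold change of the mimic over naïve libraries, with its standard error, for TGM4, cPAD2, TGM2 and PADI3 with all 10 libraries and with each naïve (N) or mimic (M) library left out. TGM4 stays between 3.17 and 4.08, cPAD2 between 1.92 and 2.54, TGM2 between 1.19 and 1.41 and PADI3 between 0.52 and 0.92.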

How the data were processed

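PO/AH RNA (15 ng per library) was sequenced with 100 bp reads by bulk MARS-seq. The authors trimmed the reads with cutadapt, aligned them with STAR to the last 1000 bases of galGal5 genes, collapsed duplicates by gene and UMI with HTSeq counting, and corrected for saturation. Versions of these tools are not stated. The deposited UMI counts were used as they stand, and 10 normalized columns were not used. Library groups came from the condition in each column name. Gene names came from the study's supplementary tables (157 pairs, of which 137 are in the counts), 94 of them from its lists of genes changed in these libraries and 43 from a table of sperm methylation, and RefSeq symbols gave synonyms and neighbors.

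Counts were compared in R 4.3.3 with edgeR 4.0.16, using filterByExpr (minimum count 10), TMM, the robust two-sided quasi-likelihood test and Benjamini-Hochberg adjustment over 8585 genes. Log2 CPM used a prior count of 2, and the standard error is the log2 fold change divided by the root of its F statistic. Alternatives were DESeq2 1.42.0, limma-voom (limma 3.58.1), RLE and upper-quartile factors, library totals alone, other filters, leaving out each library and, added later, a replicate block. The fit was tested on simulated data. The genes and lists were chosen with earlier results of these data known. Named were the 3 genes, every listed gene with a name, and the 5 genes most like each of the 3 by either measure, with at most 2 unnamed identifiers per direction. No sequence is printed.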

Additional observations from a re-analysis of the deposited data

Results flagged for a closer look

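Of 8 groups of 5 values (TGM2, TGM4, cPAD2 and PADI3 in each condition), 2 held a library far from the rest. In TGM4 the gap between naïve library 7 (4.56 CPM, 9 counts) and the next naïve library was 0.742 of the group's range. That next library, naïve library 3, also held 9 counts, which are 1.58 CPM. In cPAD2 the gap between mimic library 2 (14.3 CPM, 51 counts) and the next mimic library was 0.753 of the range. The critical value for 5 libraries is 0.71, which is meant for normal values of equal precision. CPM from low counts in libraries of unequal size are not such values, so no chance rate is given.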

How the results depend on the processing

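TGM2, TGM4 and cPAD2 kept their direction in the 18 fits outside the pairing by number, which gave 54 values. Each value lay within 1 SD of the one reported, taken between libraries of a group. That SD (0.29, 0.92 and 0.56 in log2 units) is wider than the standard errors, so few refits could leave it. The choice of the genes on this contrast also favors a kept direction. Other normalizations, filters and tools gave 1.21 to 1.28 for TGM2, 3.46 to 3.58 for TGM4 and 2.13 to 2.19 for cPAD2. Leaving out each library gave the ranges 1.19 to 1.41, 3.17 to 4.08 and 1.92 to 2.54. edgeR called 12 genes higher and 2 lower, and DESeq2 called 36 higher and 5 lower both at the study's and at default settings. Leaving out libraries gave 6 to 18 higher and 2 lower, with 6, 7 and 7 higher without naïve libraries 2, 4 and 6. Neither tool nor any omission called PADI3. The mean library size difference changed sign without naïve library 2 (p = 0.929) or 3 (p = 0.984), with p from 0.103 to 0.984 over the omissions (exact permutation tests). Numbers 2, 4 and 6 occur in both groups of libraries, but no source ties a number to a litter, batch or day. Deviations from the group means correlated at −0.07, 0.14 and −0.06 across genes within these pairs. Between unlike numbers they correlated at −0.15 to 0.05, so only number 4 lay outside that range. The numbers were not taken as pairs. An edgeR fit of these 6 libraries with the number as a replicate block, added after the data were seen, called 11 genes higher and 1 lower. The same libraries unpaired gave 1 higher and 0 lower by edgeR. At an unadjusted p under 0.05 from edgeR, the block fit had 399 genes higher and 341 lower. The unpaired fit had 395 higher and 286 lower. The log2 fold changes with the replicate block were 0.98 for TGM2, 4.60 for TGM4 and 2.21 for cPAD2, and unpaired 1.01, 4.67 and 2.23. In both fits TGM4 lay more than 1 SD (0.92) above the 3.58 reported, and TGM2 and cPAD2 stayed within 1 SD. PADI3 was called in neither fit. Naïve counts of 3 to 13 for TGM4 and cPAD2 limit the precision of their fold changes.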

Other observations

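VSTM2L (ENSGALG00000006792), the third coding gene beyond TGM2 in the RefSeq annotation and the only gene within 3 places of TGM2 with a name in the counts, was below the count filter. VSTM2L averaged 2.0 ± 0.46 CPM over naïve and 1.48 ± 0.455 CPM over mimic libraries (SD, n = 5 each).

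The log2 ratio of cPAD2 to TGM2 within a library was −2.86 ± 0.58 (SD, n = 5) in the naïve group and −2.18 ± 0.62 (SD, n = 5) in the mimic group, and the ranges of the groups overlapped.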
